A study of Drosophila melanogaster with 4 samples.

Results

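The thioester protein genes Tep1, Tep2, Tep3, Tep4 and Mcr of Drosophila melanogaster were examined together with SPH93, a serine protease homologue gene, and Clect27, a C-type lectin gene. These 7 genes were taken by symbol from the 12116 genes of the authors' deposited table, and all 7 were listed there. The set was put together with the difference between the genotypes in these same data already known, so its values below are a description and not independent evidence.

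RNA came from whole larvae at the wandering stage of the third instar, of 2 genotypes. Control larvae carried the wild-type Oregon R+ genotype, and the larvae called hsromega66 here were homozygous for the hsromega[66] mutation of Hsromega, a long noncoding RNA gene. There were 2 total RNA libraries per genotype, each a pool of 5 larvae, and the values analysed here were 1 pooled FPKM (fragments per kilobase of transcript, scaled to the mapped fragments of the libraries) for each transcript and genotype. Pooled values carry no error, so no spread between larvae or libraries stands behind any level given here. Depth is unknown, because FPKM holds no counts. As a check of the labels, the control level of Hsromega itself was 232 FPKM and its hsromega66 level 0.290 FPKM (q of 0.998 in the authors' deposited table). A gene is said to fall or rise only where the authors' deposited table gives at least 1 of its transcripts a q of at most 0.05, and ratios are differences of log2(FPKM + 1), hsromega66 minus control, which understate the change of low genes.

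Thioester-containing proteins are large secreted proteins of the family of vertebrate complement C3 and alpha-2-macroglobulin. In many of them a reactive thioester bond can attach the protein to a nearby surface, such as that of a bacterium, and mark it for uptake by phagocytes. In the fly, several Tep genes are induced by infection and by JAK/STAT signalling. Serine protease homologues have the fold of trypsin-like enzymes without a working active site, and C-type lectins bind sugars.

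Of the 7 genes, 4 fell in hsromega66 larvae and none rose, and the remaining 3 did not pass the threshold. The 4 were Tep1, SPH93, Clect27 and Tep4. Of all genes listed, 0.908% fell by the same rule, 1.4% rose and 2.31% did either, figures given as background only, since the genes were chosen on this contrast. The log2 ratios of the 7 genes ran from -2.77 in Tep1 to -0.073 in Mcr, with a median of -1.52, whereas the median over all 12116 genes was -0.013. All 7 ratios lay below 0, as did 51.8% of all genes. Summed over the 5 thioester protein genes, the level was 371 FPKM in control and 176 FPKM in hsromega66.

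**Figure D1:**
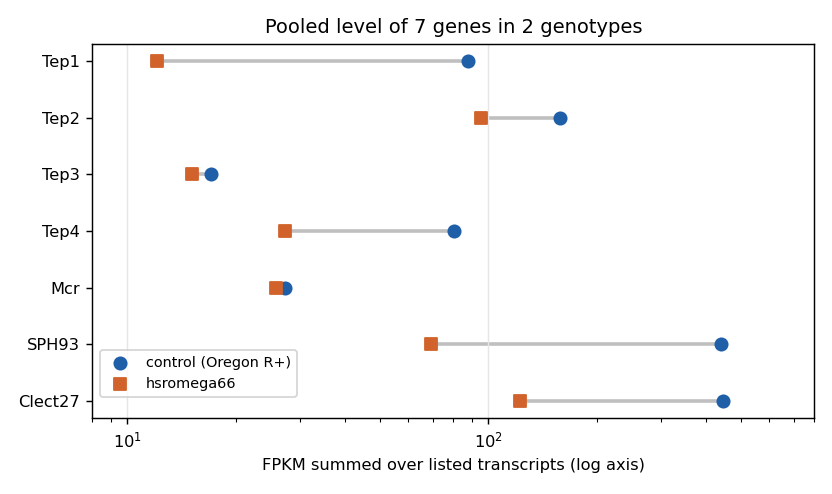
Pooled FPKM of the 7 genes on a log axis, with circles for control and squares for hsromega66, 1 value per genotype and no error. Tep1, SPH93, Clect27 and Tep4 lie far to the left of control in hsromega66, and Tep3 and Mcr stay close to their control level.

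Tep1 had the largest ratio of the 7. Its product is a secreted thioester protein, and the gene is a known target of immune challenge in the fat body. Tep1 (FBgn0041183) lies on the minus strand of 2L, 15888640 to 15893811 (dm6), and has 1 annotated transcript of 9 exons. Its level was 87.7 FPKM in control but 12.1 FPKM in hsromega66, 7.28-fold lower. In the authors' deposited table its q was 0.00546, the smallest that the table holds, shared by 197 transcripts. By log2 ratio it was number 41 among all genes from the lowest upward, and number 20 among the 110 that fell. In the order of levels it moved from number 979 of 12116 genes in control to number 5083 in hsromega66.

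Tep4 fell as well. Its product is another secreted thioester protein, and the gene is widely used as a marker of blood cell progenitors in the larval lymph gland. Tep4 (FBgn0041180; plus strand of 2L, 19548507 to 19556451) summed to 80.3 FPKM in control but 27.4 FPKM in hsromega66, a level 2.93-fold lower. Of its 4 annotated transcripts, 3 were listed. The fall rested on FBtr0081254, the main transcript, which stood at 72.5 and 23.3 FPKM and had a q of 0.00546 in the authors' deposited table. FBtr0331328 starts 1186 bases upstream, at an extra noncoding exon, and stood at 4.58 and 1.20 FPKM. Its next exon is shorter than exon 1 of the main transcript, and it has 1476 codons against 1496. FBtr0331329 differs from the main transcript only in where exon 6 begins, 6 bases earlier, and stood at 3.19 and 2.86 FPKM. Neither minor transcript passed the threshold, with q = 0.998 for both in the authors' deposited table. As shares of the gene, the main transcript took 90.3% in control and 85.2% in hsromega66, and FBtr0331329 took 3.97% and 10.5%. Transcripts that share most of their exons are divided by estimation, so these shares are less certain than the sums.

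Tep2 was the most abundant thioester protein gene in both genotypes and did not pass the threshold. Its product promotes the uptake of bacteria by cultured fly cells. Tep2 (FBgn0041182; minus strand of 2L, 7693727 to 7701601) summed to 158 FPKM in control and 95.3 FPKM in hsromega66, a log2 ratio of -0.73. The lowest of its deposited p-values was 0.0748, and q was 0.998 for each of its 5 transcripts in the authors' deposited table. Of the summed FPKM of the 5 thioester genes, Tep2 held 42.7% in control and 54.2% in hsromega66, and Tep1 held 23.7% and 6.86%.

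The 5 listed transcripts of Tep2 are its 5 annotated ones, and each has its own version of exon 5. This exon lies in the variable stretch of the protein that corresponds to the bait region of alpha-2-macroglobulin. The 5 versions are coding, lie one after another between the shared exons on either side, and are 151 to 214 bases long, giving coding lengths of 1399 to 1420 codons. The transcripts also differ in exon 8, which has 1270 bases in FBtr0335488 and FBtr0335487 and 1185 in the others. As for Tep4, their levels were divided by estimation, so they are no direct measure of exon 5 use. The version with the highest transcript level was the middle one, at 2L:7697401-7697581 (181 bases, FBtr0335488), with 85.5 FPKM in control but 49.7 FPKM in hsromega66. The version farthest from the gene's start, 2L:7696594-7696807 (214 bases, FBtr0079510), followed with 41.5 and 21.2 FPKM, and 2L:7697007-7697157 (151 bases, FBtr0079511) with 18.8 and 12.0 FPKM. The first version, 2L:7698374-7698551 (178 bases, FBtr0079513), was listed at 6.27 and 8.27 FPKM, and the second, 2L:7697977-7698130 (154 bases, FBtr0335487), at 6.15 and 4.19 FPKM. Among the 14 listed transcripts of the 7 genes, FBtr0079513 was the only one higher in hsromega66 than in control, with q = 0.998 in the authors' deposited table. Its share of Tep2 was 3.96% in control and 8.67% in hsromega66, while that of FBtr0335488 was 54.0% and 52.1%. The order of the 3 most abundant versions was the same in both genotypes.

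**Figure D2:**
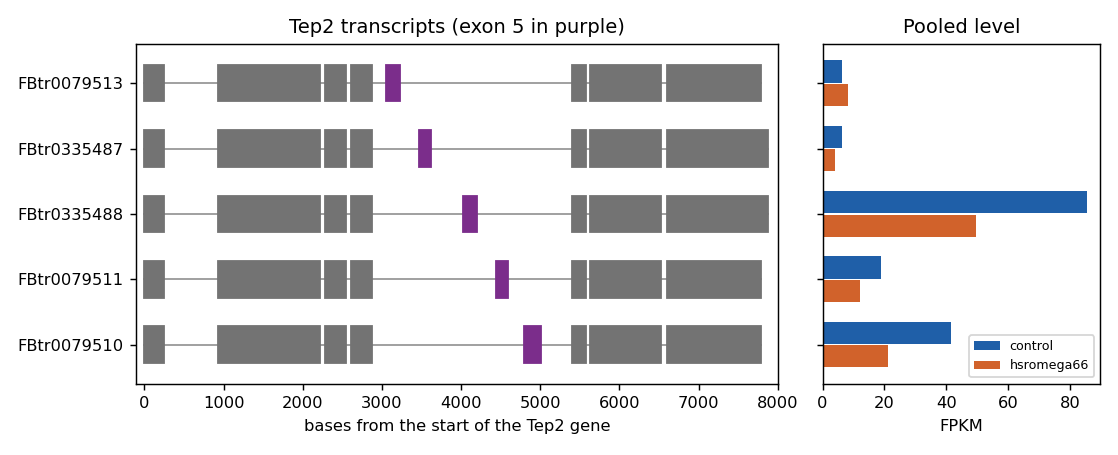
Left, exons of the 5 Tep2 transcripts to scale, in bases from the start of the gene, with the exon 5 versions in purple. Right, pooled FPKM of each transcript in control and hsromega66; FBtr0335488 is highest in both, at 85.5 and 49.7 FPKM, and FBtr0079513 alone has the longer bar in hsromega66.

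Tep3 and Mcr had similar levels in both genotypes and did not pass the threshold. Tep3, a thioester protein gene whose product takes part in phagocytosis by cultured fly cells, had a control level of 17.0 FPKM and an hsromega66 level of 15.1 FPKM (FBgn0041181; plus strand of 2L, 7702805 to 7710690). Mcr encodes a macroglobulin complement-related protein that is needed for the septate junctions of epithelia as well as for phagocytosis of yeast by cultured cells. Mcr (FBgn0267488; minus strand of 2L, 8074117 to 8082982) stood at 27.3 and 25.9 FPKM. Their log2 ratios were -0.16 and -0.073, and their deposited p-values 0.556 and 0.790. With no value per library, how large a change these p-values could have missed cannot be given.

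SPH93 was among the more abundant transcripts of control larvae. It encodes a serine protease homologue, and the gene (FBgn0032638) lies on the minus strand of 2L, 17454263 to 17455923, with 1 transcript of 2 exons and 494 codons. It stood at 442 FPKM in control, number 299 of all genes, and at 69.5 FPKM in hsromega66, number 1228, a level 6.36-fold lower. Its q was 0.00546 in the authors' deposited table. Its log2 ratio of -2.65 was number 45 from the lowest upward over all genes.

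Clect27 had the highest level of the 7 in both genotypes. The current Ensembl annotation carries its 2 transcripts under the symbol slf (schlaff), a C-type lectin gene known to be needed for the structure of the cuticle. The gene (FBgn0031629 in the authors' table; minus strand of 2L, 4796600 to 4801923) summed to 446 FPKM in control and 123 FPKM in hsromega66, a level 3.64-fold lower. Nearly all of it was FBtr0077417, at 442 and 122 FPKM, and its q was 0.00546 in the authors' deposited table. FBtr0332595 has a longer first exon, which is noncoding, and stood at 4.13 and 0.944 FPKM without passing the threshold. Both transcripts encode the same 231 codons. SPH93 and Clect27 were thus nearly level in control, at 442 and 446 FPKM, but stood at 69.5 and 123 FPKM in hsromega66.

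**Figure D3:**
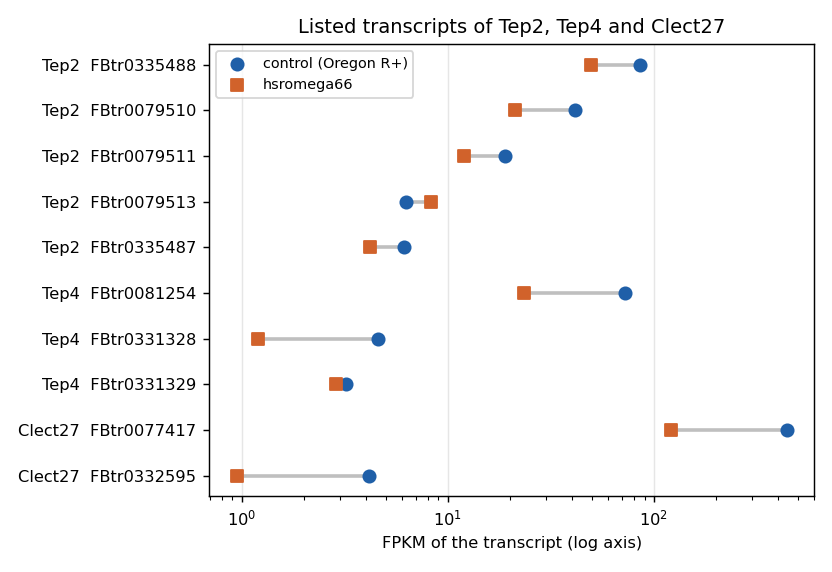
Pooled FPKM of each listed transcript of Tep2, Tep4 and Clect27 on a log axis, with circles for control and squares for hsromega66. All but FBtr0079513 of Tep2 are lower in hsromega66, and the main transcripts carry 90.3% of Tep4 and 99.1% of Clect27 in control, against 85.2% and 99.2% in hsromega66.

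The order of the levels differed between the genotypes. In control it ran from Clect27 (446 FPKM) through SPH93 (442), Tep2 (158), Tep1 (87.7), Tep4 (80.3) and Mcr (27.3) to Tep3 (17.0). In hsromega66 it ran from Clect27 (123 FPKM) through Tep2 (95.3), SPH93 (69.5), Tep4 (27.4), Mcr (25.9) and Tep3 (15.1) to Tep1 (12.1). Tep1 thus stood above Tep4, Mcr and Tep3 in control and below all of them in hsromega66. Without a spread, neighbours in these orders cannot be said to differ. The authors' own classes require an unadjusted p of at most 0.05 and an absolute log2 ratio of at least 2, so in the authors' deposited table Tep1 and SPH93 are classed as downregulated, as are 0.344% of all transcripts, while Tep4 and Clect27, with the same q, are classed as baseline.

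**Figure D4:**
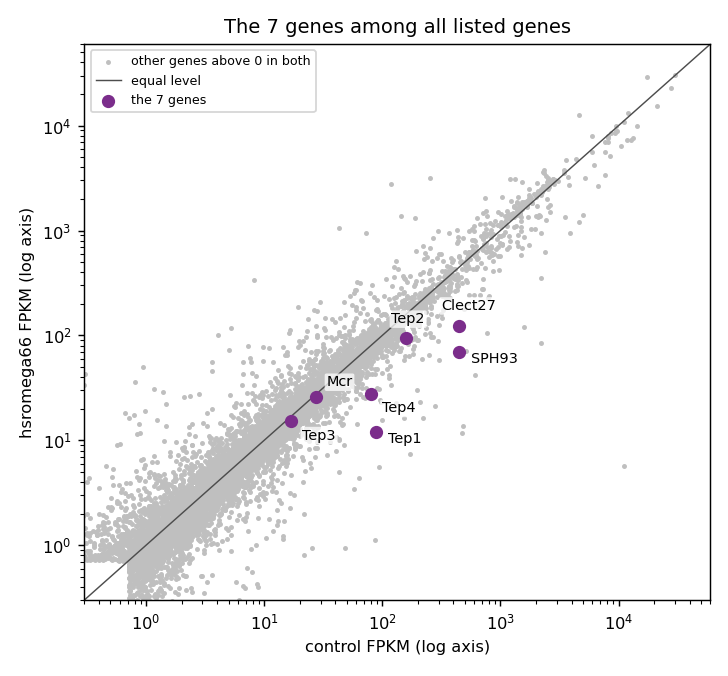
Pooled FPKM of every listed gene above 0 in both genotypes, control on the horizontal and hsromega66 on the vertical axis, both on log scales starting at 0.3 FPKM. SPH93 (442 and 69.5 FPKM), Tep1, Clect27 and Tep4 lie below the line of equal level, and Tep3 and Mcr lie close to it.

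All 7 genes lie on chromosome arm 2L, and only Tep2 and Tep3 adjoin each other. These are arranged head to head with 1203 bases between their starts, and their log2 ratios were -0.73 and -0.16. The pseudogene Tep5Psi is annotated 2464 bases beyond Tep4 and was not analysed here. No nearest listed gene beside a member passed the threshold. Around Tep1, CG44475 stood at 1.31 and 0.233 FPKM and CG31735 at 4.06 and 3.53 FPKM. Beside Tep4, CG10337 stood at 7.98 and 11.4 FPKM and CG13078 at 0.728 and 3.89 FPKM.

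SPH93 lies within an intron of CG5050, on the opposite strand, and no exon bases are shared. CG5050 stood at 13.4 and 10.1 FPKM. CG18563, 746 bases away on the strand of SPH93, stood at 144 and 75.9 FPKM, and its q was 0.998 in the authors' deposited table. On the other side, 3898 bases away, is dl, which encodes the Toll pathway transcription factor Dorsal and stood at 20.2 and 15.4 FPKM. Beside Clect27, CG3294 stood at 1.39 and 2.19 FPKM and CG15629 at 1.93 and 3.29 FPKM. For Tep2 the neighbour beyond its end was CG7025 (3.40 and 4.01 FPKM), and for Tep3 it was Ntl (3.49 and 3.30 FPKM). Mcr lies between Trf (8.95 and 5.51 FPKM) and Bsg (101 and 83.9 FPKM).

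Antisense genes share exon bases with 3 of the 7 genes. They are CG43235 with Tep2 (95 bases; 0.801 and 0.511 FPKM), asRNA:CR44990 with Tep3 (1261 bases) and asRNA:CR45257 with Mcr (124 bases), the last 2 not analysed here. The library kit keeps strand, but whether strand entered the counting is not stated in the labels, so reads of these pairs may not have been told apart. Tep1, Tep4, SPH93 and Clect27 share no exon bases with another annotated gene.

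Genes of the pathways around these proteins were read from 13 lists chosen with earlier results known, counting members of at least 1 FPKM in 1 genotype. The lists overlap, with 12 genes in 2 or more of them, so their counts are not independent. By the deposited q, 0.908% of all genes fell and 1.4% rose. In the JAK/STAT list, which covers the pathway that induces Tep genes, 0 of 9 measured genes passed the Cuffdiff threshold and 0 had an unadjusted deposited p of at most 0.05. Of all genes, 7.82% had such a p, of which those that were lower made up 3.2% of all genes and those that were higher 4.62%. The transcription factor gene Stat92E stood at 106 and 90.7 FPKM, and et, a negative regulator with the largest ratio of the list, at 5.64 and 2.78 FPKM. The median was -0.094, and -0.16 with a minimum of 5 FPKM. Of the 5 Turandot stress peptide genes, which are known JAK/STAT targets, TotC fell, from 63.0 to 4.38 FPKM, and 2 of the 5 were lower at an unadjusted deposited p of at most 0.05. Their median was -2.24, and -3.44 with a pseudocount of 0.1. The median gene was Victoria, at 5.83 and 0.446 FPKM, so the median rests on low levels. TotA, by far the most abundant of the 5, stood at 2140 and 1403 FPKM, a log2 ratio of -0.61, and did not pass the threshold. The summed level of the 5 was 2225 FPKM in control and 1409 FPKM in hsromega66.

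Among 23 genes of the Toll pathway 1 fell and 1 rose, with a median of -0.14. By the same rule 0.908% of all genes fell and 1.4% rose. The gene SPE, whose product is a protease that cleaves the ligand spz, fell from 36.0 to 9.57 FPKM. The gene grass, whose product is a protease acting before SPE, rose from 9.65 to 25.1 FPKM. In the list of Bomanins and other Toll-induced peptides, 9 of 17 measured genes fell, against 0.908% of all genes. None rose, and the median was -2.66. The largest fall was that of IM23, from 469 to 11.9 FPKM. It was followed by IM4, from 482 to 13.8 FPKM, by IM2, from 2225 to 84.8 FPKM, and by IM3, from 1569 to 120.2 FPKM.

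The Imd pathway list had 0 calls by the Cuffdiff q among 23 genes. At an unadjusted deposited p of at most 0.05 it held 2 genes, both lower, as were 3.2% of all genes. They were the peptidoglycan recognition protein genes PGRP-SC1a (11.0 and 1.79 FPKM) and PGRP-SC2 (236 and 118 FPKM). The median of the list was 0.20, and its largest ratio was that of PGRP-SB2, another such gene, listed at 0.146 and 25.4 FPKM. PGRP-SB2 had a q of 0.998 in the authors' deposited table. Antibacterial peptides of that pathway rose in 6 of 15 genes, against 1.4% of all genes. None fell, against 0.908% of all genes, and the median was 1.97. AttC, an attacin gene, rose from 5.26 to 118 FPKM, AttD from 1.49 to 22.4 FPKM, AttB from 6.62 to 56.1 FPKM and Dro, the drosocin gene, from 7.72 to 56.2 FPKM. AttB has a near-identical copy, AttA, and the division of reads between the 2 is uncertain.

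Relatives of SPH93 and Clect27 were read in the same way, against 0.908% of all genes that fell and 1.4% that rose. Among 23 measured clip-domain and related serine protease genes, SPE and CG4793 (26.9 to 8.38 FPKM) fell and grass rose, with a median of -0.17. That median was 0.030 both with no FPKM minimum and with a minimum of 5 FPKM. Among 13 other C-type lectin genes, none fell and 3 rose: CG14500 (32.3 to 117 FPKM), CG15818 (68.8 to 184 FPKM) and lectin-28C (6.52 to 15.3 FPKM). Clect27, at 446 and 123 FPKM, is not counted among them, and the median of this list was -0.18.

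Receptors and helpers of phagocytosis, the process that thioester proteins serve, gave 0 calls by the Cuffdiff q among 16 genes. At an unadjusted deposited p of at most 0.05, 4 were lower, as were 3.2% of all genes. Among the 4 are NimC1 and eater, which are also in the haemocyte list. The median of the phagocytosis list was -0.34, and -0.21 with a minimum of 5 FPKM. Its largest ratio was that of NimB1 (9.02 and 4.63 FPKM), a secreted member of the Nimrod family. In the clotting list 1 of 14 genes rose, as did 1.4% of all genes, and the median was -0.052. The gene was Idgf3 (48.7 to 156 FPKM), a chitinase-like growth factor gene. The list of septate junction and related genes, which was not limited to partners of Mcr, had 0 calls by the Cuffdiff q among 30 genes. At an unadjusted deposited p of at most 0.05, 3 were higher: l(2)gl, Tsp2A and verm. Of all genes, 4.62% were higher at such a p. The median of the list was -0.049, and the largest ratio was that of l(2)gl (56.8 and 113 FPKM), a gene of epithelial polarity.

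**Figure D5:**
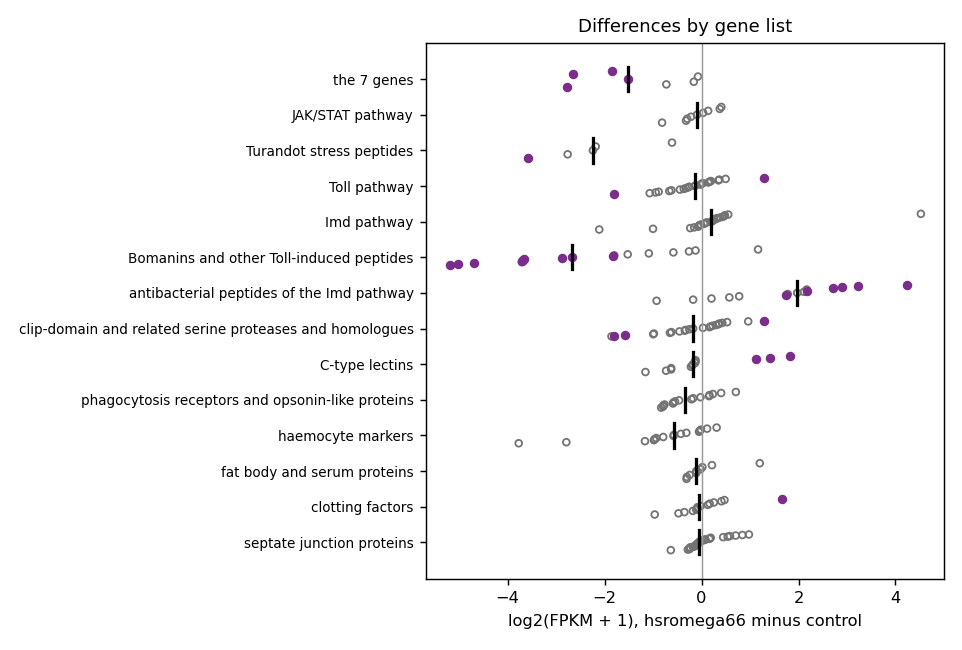
Difference of log2(FPKM + 1), hsromega66 minus control, for the 7 genes and for each measured gene of the 13 lists. Filled points passed q of at most 0.05 in the authors' deposited table, and black bars mark medians, which lie at -1.52 for the 7 genes, -2.66 for the Toll-induced peptides and 1.97 for the antibacterial peptides of the Imd pathway.

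Markers of blood cells and fat body, the usual sources of secreted immune proteins, were set beside these values. In whole larvae, fewer cells of a type and less RNA per cell cannot be told apart. All 7 haemocyte markers were lower in hsromega66, with a summed level of 228 FPKM in control and 137 FPKM in hsromega66. Hml, the hemolectin gene, stood at 49.3 and 24.8 FPKM, and srp, a GATA factor gene, was the lowest marker in control, at 13.1 and 12.7 FPKM. The 2 listed crystal cell markers, PPO1 and PPO2, summed to 188 and 120.1 FPKM, and lz was not among the genes analysed here. The 3 lamellocyte markers summed to 149 and 50.1 FPKM, with ItgaPS4 at 25.5 and 0.945 FPKM and PPO3 at 14.4 and 1.23 FPKM. None of these markers passed the Cuffdiff threshold, and 6 of the 12 had an unadjusted deposited p of at most 0.05. The 6 were Hml, NimC1, eater, Ppn, PPO1 and atilla. The wider list of 16 measured haemocyte genes holds all 12 markers, and 0 of the 16 passed. Its genes lower at such a p were these same 6 markers, and its median was -0.57. Of all genes, 3.2% were lower at such a p and 51.8% had a log2 ratio below 0. Of the genes in the list that are not markers, Col4a1 and vkg were higher, with log2 ratios of 0.11 and 0.31. The others, Nplp2 and ush, had ratios of -0.052 and -0.014. The 6 listed fat body markers summed to 28460 and 27968 FPKM with a median log2 ratio of -0.064, and 4 of the 6 were lower. Of the 6, Adh, the alcohol dehydrogenase gene, had the largest ratio (1341 and 3084 FPKM) and none was called. The rise of Adh in level offsets lower levels of other markers in this sum. In the list of 9 fat body and serum protein genes the median was -0.11, with 0 calls by the Cuffdiff q. Of the 9, 6 were lower, and the list summed to 65909 FPKM in control and 59473 FPKM in hsromega66. Again Adh was the 1 gene higher at an unadjusted deposited p of at most 0.05, as were 4.62% of all genes. The part of blood cell number in the falls of Tep1, Tep4, SPH93 and Clect27 was not tested. In fold terms the summed haemocyte markers were 1.67-fold lower, the crystal cell markers 1.57-fold and the lamellocyte markers 2.97-fold. Among the lamellocyte markers, ItgaPS4 was 27.0-fold and PPO3 11.7-fold lower. These 2 folds rest on low hsromega66 levels of 0.945 and 1.23 FPKM, and neither gene had an unadjusted deposited p of at most 0.05. The lamellocyte marker atilla, which had such a p, was 2.27-fold lower. The falls of the 4 genes were 7.28-fold for Tep1, 6.36-fold for SPH93, 3.64-fold for Clect27 and 2.93-fold for Tep4.

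The genes whose pair of levels lay nearest to each member were found by the distance between the pairs of log2(FPKM + 1) values, over the 2 pooled values only. Nearest to Tep1 were GstD10, a glutathione transferase gene (100.3 and 15.6 FPKM, distance 0.40), and CG9928 (61.6 and 14.3 FPKM, distance 0.55), both of which fell. Nearest to Tep4 were Gnpnat (76.7 and 26.6 FPKM, distance 0.075) and the serpin gene Spn88Eb (71.1 and 25.3 FPKM, distance 0.21), which also fell. For SPH93 and Clect27 the nearest entries were small RNAs of the nucleolus and Cajal body, none of which passed the threshold: snoRNA:Psi18S-841a (516 and 70.6 FPKM) for the former and scaRNA:PsiU2-38.40.42 (452 and 127 FPKM) for the latter. Nearest to Tep2 were MtnE (155 and 97.7 FPKM) and Ssk (155 and 99.8 FPKM), to Tep3 mthl9 and CG44403, and to Mcr S-Lap2 and MFS3, none of them called.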

How the data were processed

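Total RNA of whole larvae was sequenced as 4 libraries, 2 per genotype. Per the labels' protocols, each library came from 5 larvae, was made with a stranded kit that removes ribosomal RNA, and was read as pairs of 100 bp. Build dm6 and the tools Cuffdiff 2.1.1, Cufflinks, Bowtie and TopHat are named in the submitters' processing notes. Per the file headers, the authors deposited 1 pooled FPKM per transcript and genotype, together with log2 ratios, p-values and q-values, for 21529 transcripts. The q-values equalled Benjamini-Hochberg adjusted p-values over all of them within 1e-06. The higher FPKM of a transcript was never below 0.669. Nothing says whether libraries came from separate cultures, so p-values may measure technical spread only.

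FPKM was summed per gene and compared as log2(FPKM + 1), and no test was added to the authors' own. Genes were matched to Ensembl 115 (BDGP6.54, dm6 coordinates), 12037 by gene ID and 72 by transcript ID. All 14 transcripts of the 7 genes matched, and all 7 genes lay inside the loci of the file. The members and the 13 lists were chosen with earlier results of these data known. Genes named were the members, their nearest neighbours, the 2 genes nearest in level to each and marker genes. Of each list, the called genes (at most 4) or its most extreme gene were named. Stat92E and Hml were named for their roles, AttA for its copy, and TotA and Victoria for their place in the Turandot list. PGRP-SC1a, PGRP-SC2, Tsp2A, verm and the genes of the wider haemocyte list that are not markers were named to show what the counts hold. No protein or promoter sequences were used here. Python 3.11.15, numpy 2.4.6, pandas 2.3.3 and matplotlib 3.10.9 were used, and the calculations were tested on simulated data.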

Additional observations from a re-analysis of the deposited data

How the results depend on the processing

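Each alternative could move only some of the values. Pseudocounts of 0.1 and 5 and centring on the median of all genes change ratios but not calls, which rest on the deposited q. Thresholds of q at 0.01 and 0.1 and of an unadjusted p at 0.05 bear on calls but not on ratios. The main transcript alone bears on Tep2, Tep4 and Clect27. Within these limits no member changed direction or call. The log2 ratio ranged from -2.85 to -2.44 for Tep1, from -2.67 to -2.59 for SPH93, from -1.86 to -1.82 for Clect27, from -1.59 to -1.40 for Tep4, from -0.77 to -0.70 for Tep2, from -0.17 to -0.13 for Tep3 and from -0.076 to -0.061 for Mcr. The number of the 7 genes that fell was 4 under every count alternative run. These included FPKM minimums of 1 and 5 and an absolute log2 ratio of at least 1. None of these settings could have changed that number, so it is no test of the calls. The 4 genes hold the smallest deposited q, 0.00546, with ratios of -1.52 or lower and levels above 5 FPKM. The other 3 have a deposited q of 0.998 and a deposited p of at least 0.0748. Over all genes, an unadjusted p of at most 0.05 gave 388 lower and 560 higher genes against 110 and 170 by q, since it leaves out the adjustment. Of 52 recomputed list medians, 2 changed sign, both of the serine protease list, and 3 moved by over 1.5 times: Turandot to -3.44 with a pseudocount of 0.1, and JAK/STAT to -0.16 and phagocytosis to -0.21 with a minimum of 5 FPKM. Of all genes, 7.82% had an unadjusted p of at most 0.05, with 3.2% lower and 4.62% higher. By that p the calls went from 0 to 6 of 16 genes in the haemocyte list and 0 to 4 of 16 in phagocytosis, all lower. In septate junctions they went from 0 to 3 of 30, all higher. They went from 0 to 2 of 23 in the Imd list, both lower, and 0 to 1 of 9 in the fat body list, which was higher. The Turandot list went from 1 to 2 of 5, both lower, and the clotting list from 1 to 2 of 14, 1 in each direction. The Toll list went from 2 to 4 of 23, 2 in each direction, and the serine protease list from 3 to 5 of 23, 4 of them lower. Toll-induced peptides went from 9 to 11 of 17, all lower, and antibacterial peptides from 6 to 7 of 15, all higher. Lectins went from 3 to 4 of 13, 3 of them higher, while JAK/STAT stayed at 0 of 9. No paired analysis was possible because the deposited values are pooled over the libraries of each genotype, and for the same reason no library could be left out. Depth is unknown, so no limit for low transcripts can be given.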
